A study of Mus musculus with 8 samples.

Results

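Matrix metalloproteinases (MMPs), ADAM and ADAMTS proteases and their inhibitors, the TIMPs, were described across 8 subcutaneous tumours. Members were chosen from the deposited count table by their symbol, Mmp, Adam, Adamts or Timp followed by a number. This gave 62 genes of 18251: 20 MMPs, 19 ADAMs, 19 ADAMTS proteases and 4 TIMPs. The tumours were grown from MC38 cells, a mouse colon cancer line, that carry TetOn-CXCL14, a construct that makes the chemokine CXCL14 when doxycycline (DOX) is present. The DOX group was 4 male C57 mice whose drinking water held DOX at 1 mg/mL over 3 days, and the control group was 4 male C57 mice bearing the same cells that were left untreated. The mice were 7 weeks old when used for tumour formation, and all 8 tumours carry the construct. The samples hold no tumour that met DOX without carrying the construct, so effects of DOX and of CXCL14 cannot be told apart. The TetOn element acts in the injected tumour cells, so host cells of the tumour were exposed to DOX without carrying the construct.

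MMPs are zinc-dependent proteases, secreted or anchored in the membrane, that are made as inactive precursors and cut collagens, other matrix proteins and many soluble factors. TIMPs bind their active site, and TIMP2 also takes part in the activation of MMP2 by the membrane-type protease MMP14. ADAMs sit in the membrane and release the outer parts of growth factors, cytokines and receptors, whereas ADAMTS proteases are secreted and act on proteoglycans and procollagens. In solid tumours, cancer cells, fibroblasts, macrophages and neutrophils all make members of these families.

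The libraries held between 18685975 and 19307481 counts. Cxcl14 was between 15.8 and 30.2 CPM (library-scaled counts, with TMM factors) in DOX tumours, against 8.30 to 9.69 CPM in controls. Its log2 fold change was 1.38 ± 0.20 (SE), and its groups did not overlap. The edgeR test used below still did not call it (unadjusted p = 7.37e-05, adjusted p = 0.387). DOX tumour 1 lay among the controls on the first principal component of all tested genes, at -10.5 where the other DOX tumours were at 14.9 to 43.1 and the controls at -27.3 to -9.35. Of the 10 markers listed for epithelium, the labelled origin of the line, 8 were in the table and 2, Cdh1 and Lgals4, were above 1 CPM on average. Epcam averaged 0.223 CPM in DOX tumours and 0.117 CPM in controls. The summed level of 10 macrophage markers was 2573 to 4539 CPM in DOX tumours and 1960 to 2246 CPM in controls. That of 9 T cell markers was 72.0 to 238 CPM in DOX tumours and 29.1 to 71.9 CPM in controls, and that of 10 skeletal muscle markers was 20.3 to 205 CPM in DOX tumours and 1.75 to 57.5 CPM in controls. In tissue RNA, more cells of a type and more RNA per cell cannot be told apart. The part of these cell types in the values below was not tested.

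A cluster of 8 MMP genes on chromosome 9, between 7272514 and 7581885 in GRCm38.p6, holds 6 genes that share a pair of promoter motifs. RefSeq promoters, running from 250 bases before the annotated start to 50 from it, were matched for 38 of the 62 genes. The AP-1 motif TGANTCA, bound by the FOS and JUN transcription factors, was found in 7 of the 38 genes and in 7.81% of all 32851 promoters, and TATAAA in 9 of the 38 genes and in 13.6% of all promoters. A member gene was counted when any of its promoters matched, whereas the background counts single promoters, so the shares have unlike units. Both strands were searched, and these letters do not allow an AP-1 match to overlap a TATAAA match that starts downstream of it. An AP-1 motif with TATAAA starting at most 60 bases downstream occurred in 6 of the 38 genes, against 0.359% of all promoters, and all 6 genes were in the chromosome 9 cluster. They are the collagenases Mmp13, Mmp1a and Mmp1b, the elastase Mmp12 and the stromelysins Mmp3 and Mmp10. The other cluster members, Mmp8 and Mmp27, were not among the 7 genes with the AP-1 letters, which a gene without a matched promoter could not join. Such a match describes letters and says nothing of binding. The stretches below run from 100 bases before the annotated start to 20 from it, in lower case with both motifs in capitals, and are shown because this pair of motifs is what these 6 genes have in common.
Mmp13: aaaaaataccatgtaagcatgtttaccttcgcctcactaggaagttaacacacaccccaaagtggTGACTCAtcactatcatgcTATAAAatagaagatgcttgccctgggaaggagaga
Mmp12: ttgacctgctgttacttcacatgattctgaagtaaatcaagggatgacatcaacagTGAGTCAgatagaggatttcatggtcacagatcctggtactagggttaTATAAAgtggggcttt
Mmp3: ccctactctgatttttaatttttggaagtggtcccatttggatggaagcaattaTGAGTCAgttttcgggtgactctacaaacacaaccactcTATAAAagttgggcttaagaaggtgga
Mmp10: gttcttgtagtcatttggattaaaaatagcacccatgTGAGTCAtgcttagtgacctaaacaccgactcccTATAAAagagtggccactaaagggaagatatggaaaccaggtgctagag
Mmp1a: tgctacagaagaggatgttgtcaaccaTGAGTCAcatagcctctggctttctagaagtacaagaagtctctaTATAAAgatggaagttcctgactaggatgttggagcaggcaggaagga
Mmp1b: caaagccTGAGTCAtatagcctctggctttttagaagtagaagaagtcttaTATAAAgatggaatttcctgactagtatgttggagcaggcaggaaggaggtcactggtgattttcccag

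In GRCm38.p6 the Mmp13 stretch is chr9:7272414-7272533, that of Mmp12 chr9:7347274-7347393, that of Mmp3 chr9:7445722-7445841, that of Mmp10 chr9:7502242-7502361 and that of Mmp1a chr9:7464041-7464160, all on the plus strand. The Mmp1b stretch is chr9:7388007-7388126 on the minus strand. TATAAA started between 19 bases downstream of the AP-1 motif's first base in Mmp13 and 48 bases downstream in Mmp12. The AP-1 motif of Mmp12 starts 44 bases before the annotated start, so its TATAAA lies after that start. In the other genes TATAAA starts before the annotated start. Mmp12 has another annotated promoter, which holds neither motif.

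At the level of whole families, each was dominated by a few genes, and the family totals did not separate the groups. On the FPKM scale, which divides by gene length and so allows genes to be compared, Mmp14 made up 74.2% of the MMP total. Timp2 made up 79.8% of the TIMP total, Adamts14 32.7% of the ADAMTS total and Adam17 22.7% of the ADAM total. Summed FPKM of the MMPs averaged 252 ± 22.3 in DOX tumours and 248 ± 43.6 in controls, and that of the TIMPs 401 ± 37.3 in DOX tumours and 397 ± 47.5 in controls (SD, n = 4 each). Summed FPKM of the ADAMs was 248 ± 11.4 in DOX tumours and 240.0 ± 13.04 in controls, and that of the ADAMTS proteases 42.4 ± 2.46 in DOX tumours and 43.3 ± 4.45 in controls (SD, n = 4 each). MMP total divided by TIMP total was 0.586, 0.649, 0.638 and 0.647 in DOX tumours 1 to 4 and 0.679, 0.652, 0.642 and 0.527 in control tumours 1 to 4. The groups overlapped in this ratio, and its lowest and highest values were both in controls.

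**Figure D1:**
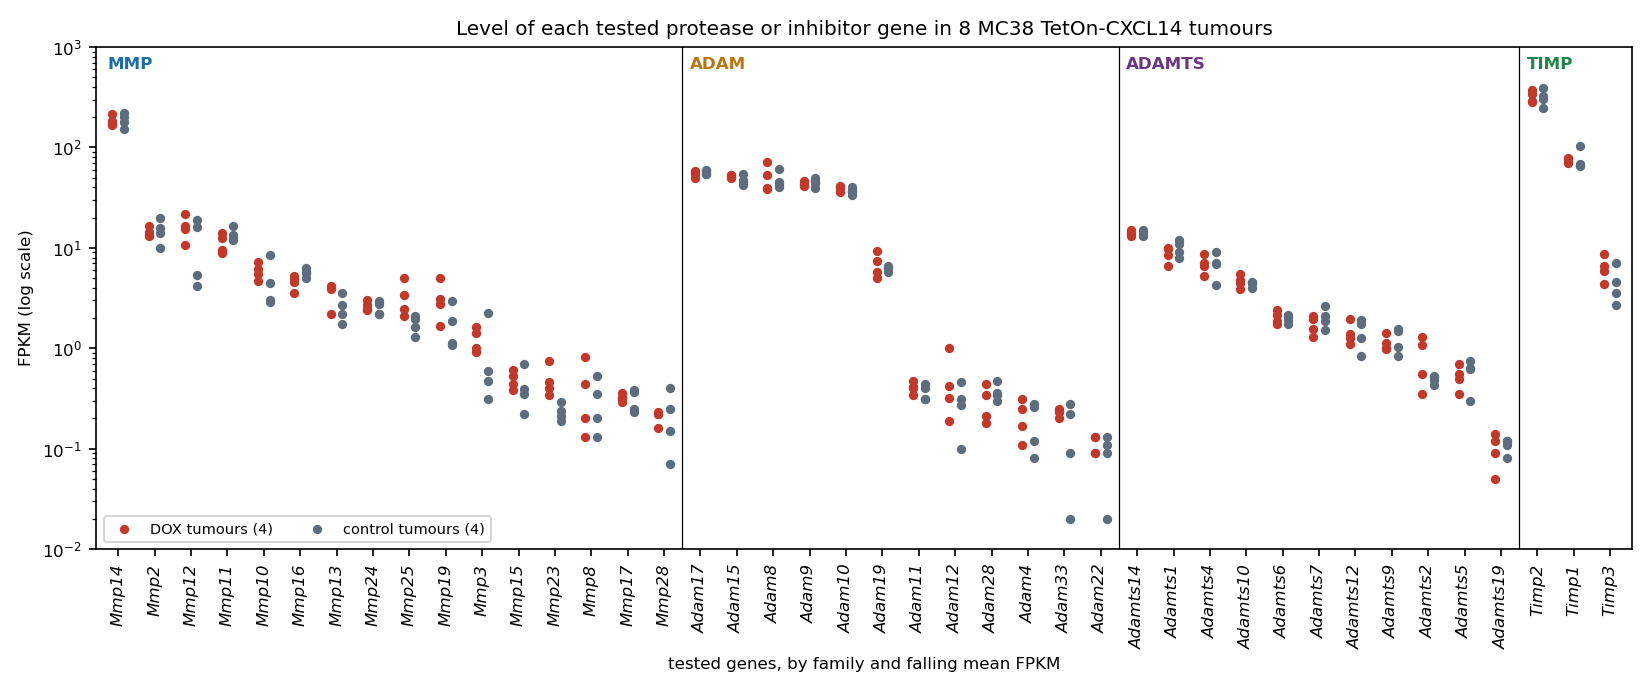
FPKM (vertical, log scale) of the 42 genes with enough counts for the test, by family and falling mean, with 4 DOX tumours in red and 4 control tumours in grey. Mmp14 and Timp2 stand above the other members of their families, and 5 ADAMs lie close together between about the levels of Adam10 (mean 37.9 FPKM) and Adam17 (mean 55.5 FPKM).

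Enough counts for the test were found in 42 of the 62 genes: 16 MMPs, 12 ADAMs, 11 ADAMTS proteases and 3 TIMPs. At a Benjamini-Hochberg adjusted p of 0.05 in edgeR's quasi-likelihood test over 13436 genes, 0 of the 42 were called, against 0.00744% of all genes tested, which is the 1 gene Adgrg1. Cxcl14, at 2.61-fold with groups that did not overlap, was not called either. A missing call alone therefore does not exclude a change of that size. DESeq2 called 0 of the members and 0.566% of all genes. Without adjustment 2 of the 42 had p at most 0.05, both on the higher side, or 4.76%, against 11.6% of all genes, of which 7.65% were on the higher and 3.95% on the lower side. The groups did not overlap in 1 of the 42, on the higher side, against 5.66% of all genes, of which 3.23% were on the higher and 2.43% on the lower side. Log2 fold changes were above 0 in 27 of the 42, or 64.3%, against 46.8% of all genes, and their median was 0.06 against -0.01 over all genes. The members' shares past these thresholds were at or below those of all genes, and their share above 0 was larger. The count at an unadjusted p of 0.05 moved when single tumours were left out, and the share over all genes in each fit moved too. The count was 5 without DOX tumour 1 (11.9% of members tested against 16% of all genes) and 1 without DOX tumour 2 (2.38% against 8.26%). It was 4 without DOX tumour 3 (9.52% against 9.39%) and 5 without control tumour 1 (11.9% against 10.9%). Without control tumour 2 it was 6 (14.3% against 10.5%), and without control tumour 3 it was 1 (2.38% against 9.23%). It stayed at 2 without DOX tumour 4 (4.76% against 6.12%) and without control tumour 4 (4.76% against 10.8%). Mmp25 was among the counted genes in each fit with 1 tumour left out.

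What these data can bound differs by gene. The 95% interval of the fold change lay within 1.5-fold in either direction for 18 of the 42 genes, and for 16 it reached a change of at least 2-fold. For Adam17 the interval on the log2 scale ran from -0.19 to 0.07, and for Adamts14 from -0.15 to 0.17. For Mmp3, with 286 counts over all 8 tumours, it ran from -0.82 to 1.74.

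**Figure D2:**
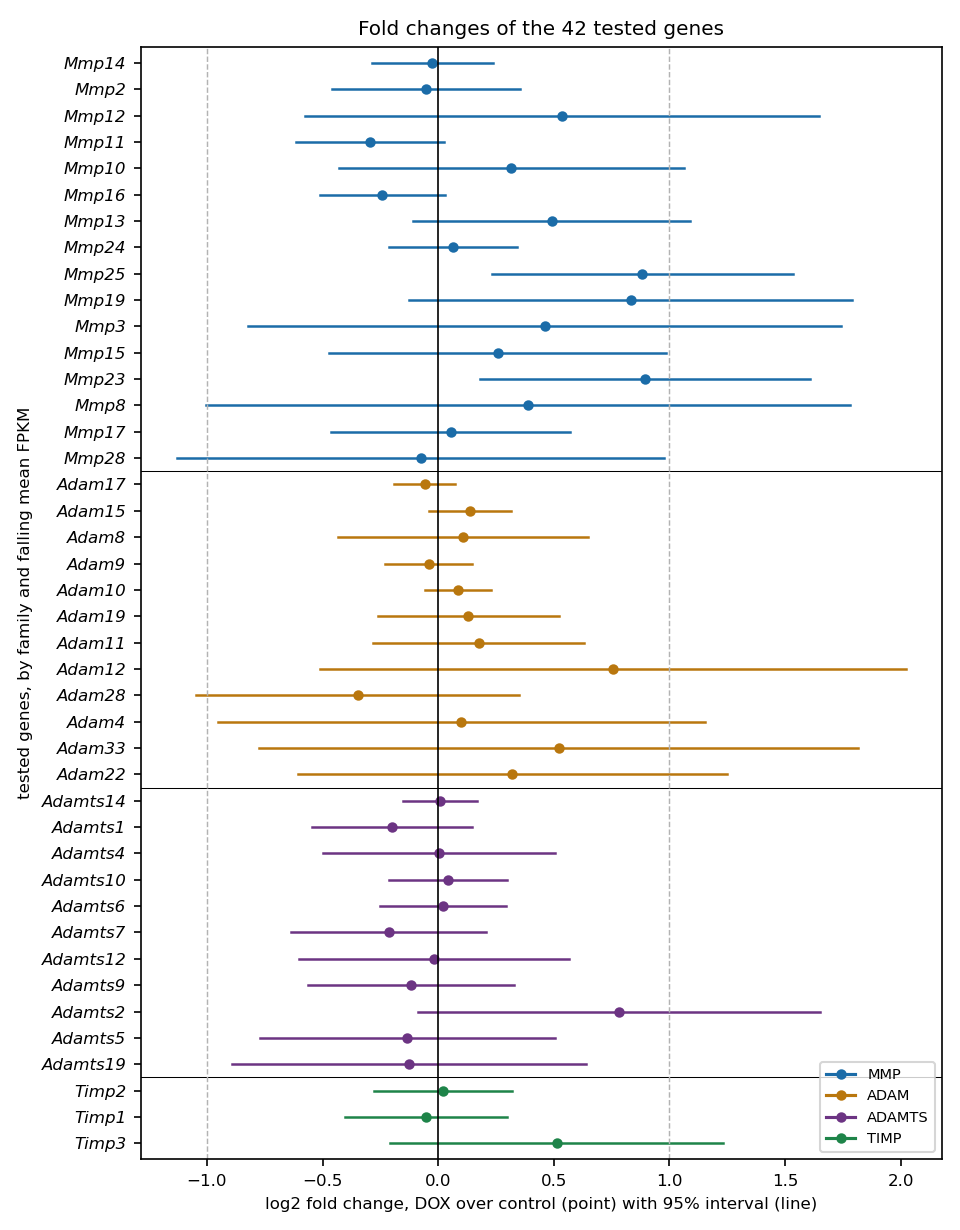
Log2 fold change of DOX over control tumours (points) with its 95% interval (lines) for the 42 tested genes, by family and falling mean FPKM, with dashed lines at -1 and 1. Adam17 and Adam10 have the shortest intervals, and the intervals of Mmp25 and Mmp23 are the 2 that leave out 0.

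Among MMPs, 11 of 16 tested genes had a log2 fold change above 0, with a median of 0.29. This median was between 0.11 without DOX tumour 4 and 0.54 without control tumour 2, and was 0.17 without control tumour 1, 0.17 without control tumour 3 and 0.19 without control tumour 4. Mmp14, the membrane-type protease that cuts fibrillar collagen and activates proMMP2, lies on chromosome 14 (54431598 to 54442456). It stood at 673, 643, 801 and 644 CPM in DOX tumours 1 to 4 and at 688, 813, 740 and 570 CPM in control tumours 1 to 4. Its counts were whole in 0 of 8 libraries. Both the highest and the lowest tumour were controls, and the log2 fold change was -0.03 ± 0.12 (SE, adjusted p = 0.949). Mmp2, the gelatinase that MMP14 activates, was at 39.1, 43.2, 49.4 and 42.2 CPM in DOX tumours 1 to 4 and at 43.6, 59.2, 47.3 and 30.3 CPM in control tumours 1 to 4. As for Mmp14, control tumour 2 was highest and control tumour 4 lowest, and the log2 fold change was -0.05 ± 0.18 (SE, adjusted p = 0.925).

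Mmp25 and Mmp23 were the MMPs with an unadjusted p below 0.05, and both missed the adjusted threshold. Mmp25, a membrane-anchored protease known from leukocytes (chromosome 17, 23628315 to 23645269), was at 7.76, 12.6, 9.35 and 19.2 CPM in DOX tumours 1 to 4 and at 8.25, 4.87, 7.21 and 6.16 CPM in control tumours 1 to 4. DOX tumour 4 was highest, and DOX tumour 1 lay below control tumour 1. The log2 fold change was 0.88 ± 0.29 (SE, unadjusted p = 0.0134, adjusted p = 0.387) and 0.58 without DOX tumour 4. In the same order the macrophage marker sum was 2573, 3356, 2894 and 4539 CPM in DOX tumours and 1960, 2219, 2246 and 2223 CPM in controls. DOX tumours had the same order in both, whereas control tumour 1 was the highest control in Mmp25 and the lowest in the marker sum. The 8 neutrophil markers in the table summed to 40.4, 62.3, 50.9 and 90.7 CPM in DOX tumours 1 to 4, again in the order of Mmp25. In control tumours 1 to 4 they summed to 38.5, 34.3, 42.03 and 40.5 CPM. Control tumour 3 was thus the highest control in the neutrophil marker sum, whereas control tumour 1 was the highest control in Mmp25. Csf3r made up most of that sum, averaging 53.2 CPM in DOX tumours and 32.1 CPM in controls, followed by Cxcr2 at 7.15 CPM in DOX tumours and 6.30 CPM in controls. The other 6, S100a8, S100a9, Ly6g, Camp, Ltf and Mpo, averaged 0.0134 to 0.422 CPM in DOX tumours and 0.0130 to 0.185 CPM in controls. The part of either cell type in the level of Mmp25 was not tested. Mmp25 overlaps Bicdl2 in the annotation and its counts were whole in 0 of 8 libraries, so its reads may have been divided with that gene.

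Mmp23, a membrane-bound MMP without a classical propeptide switch (chromosome 4, 155650655 to 155654539), was the 1 tested member whose groups did not overlap. It was at 0.828, 1.30, 0.783 and 0.855 CPM in DOX tumours 1 to 4, all above the 0.437, 0.674, 0.311 and 0.590 CPM of control tumours 1 to 4. The log2 fold change was 0.90 ± 0.32 (SE, unadjusted p = 0.0190, adjusted p = 0.387). Its unadjusted p was above 0.05 without DOX tumour 2 and without control tumour 3. The gene had 110 counts over all 8 tumours, and Mmp23 overlaps Mib2 in the annotation.

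The tested genes of the chromosome 9 cluster, whose promoters are printed above except that of Mmp8, had log2 fold changes above 0 that did not pass the test, and the sign of Mmp8 rests on 1 tumour. Their log2 fold changes were 0.54 ± 0.49 for Mmp12, 0.49 ± 0.27 for Mmp13, 0.46 ± 0.57 for Mmp3, 0.39 ± 0.62 for the neutrophil collagenase Mmp8 and 0.32 ± 0.33 for Mmp10 (SE), with a smallest adjusted p of 0.498. The median of the 5 was 0.46, and 0 of them had an unadjusted p below 0.05. Mmp12, the macrophage elastase, was at 18.6, 29.6, 27.9 and 41.5 CPM in DOX tumours 1 to 4 and at 30.0, 34.0, 7.37 and 9.70 CPM in control tumours 1 to 4. The controls fell into a high and a low pair, and the high pair overlapped the DOX tumours. Control tumour 2 was also highest of all 8 tumours in Mmp3, at 3.89 CPM where the remaining controls had 0.546 to 1.04 CPM, and in Mmp10, at 14.2 CPM where they had 5.08 to 7.37 CPM. When 1 tumour was left out, the log2 fold change of Mmp3 ran from 0.18 without control tumour 1 to 1.44 without control tumour 2, and that of Mmp10 from 0.15 to 0.76 without the same tumours. That of Mmp12 ran from 0.26 without control tumour 3 to 0.91 without control tumour 2, and that of Mmp13 from 0.34 to 0.69 without the same tumours. Mmp8 had -0.26 without DOX tumour 4 and 0.82 without control tumour 1. Mmp3 and Mmp10 are related stromelysins of the cluster and their counts were whole in 0 of 8 libraries, so how their reads were divided is uncertain. Mmp1a, Mmp1b and Mmp27 had 1, 3 and 48 counts over all 8 tumours and were not tested.

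Of the remaining MMPs, the largest fold change was that of Mmp19, a secreted protease that macrophages can make, and the largest on the lower side those of Mmp11 and Mmp16. Mmp19 was highest in DOX tumour 4 with 16.9 CPM, where the other DOX tumours had 5.38 to 9.98 CPM and controls 3.53 to 9.94 CPM. Its log2 fold change was 0.83 ± 0.42 (SE, adjusted p = 0.472), and 0.49 without DOX tumour 4. Mmp11, the stromelysin known from tumour fibroblasts, averaged 24.8 ± 4.79 CPM in DOX tumours and 30.4 ± 3.94 CPM in controls (SD, n = 4 each), and the log2 fold change was -0.29 ± 0.14 (SE, adjusted p = 0.459). Mmp16, a membrane-type MMP, had -0.24 ± 0.12 (SE, adjusted p = 0.462) and was lowest in DOX tumour 4. Fibroblast markers summed to 793 to 980 CPM in DOX tumours and 584 to 1216 CPM in controls, so the groups overlapped in that sum. Dcn was its largest part, averaging 514 CPM in DOX tumours and 537 CPM in controls. Of the 10 markers, 5 had a log2 fold change above 0 and 5 below. They included Thy1 at 1.00 ± 0.27 and Pdgfra at -0.36 ± 0.19 (SE). Thy1 was the 1 marker of this list that DESeq2 called (adjusted p = 0.0249). Mmp15, Mmp17, Mmp24 and Mmp28 had log2 fold changes between -0.08 and 0.26, and the untested Mmp21 had 4 counts over all 8 tumours.

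**Figure D3:**
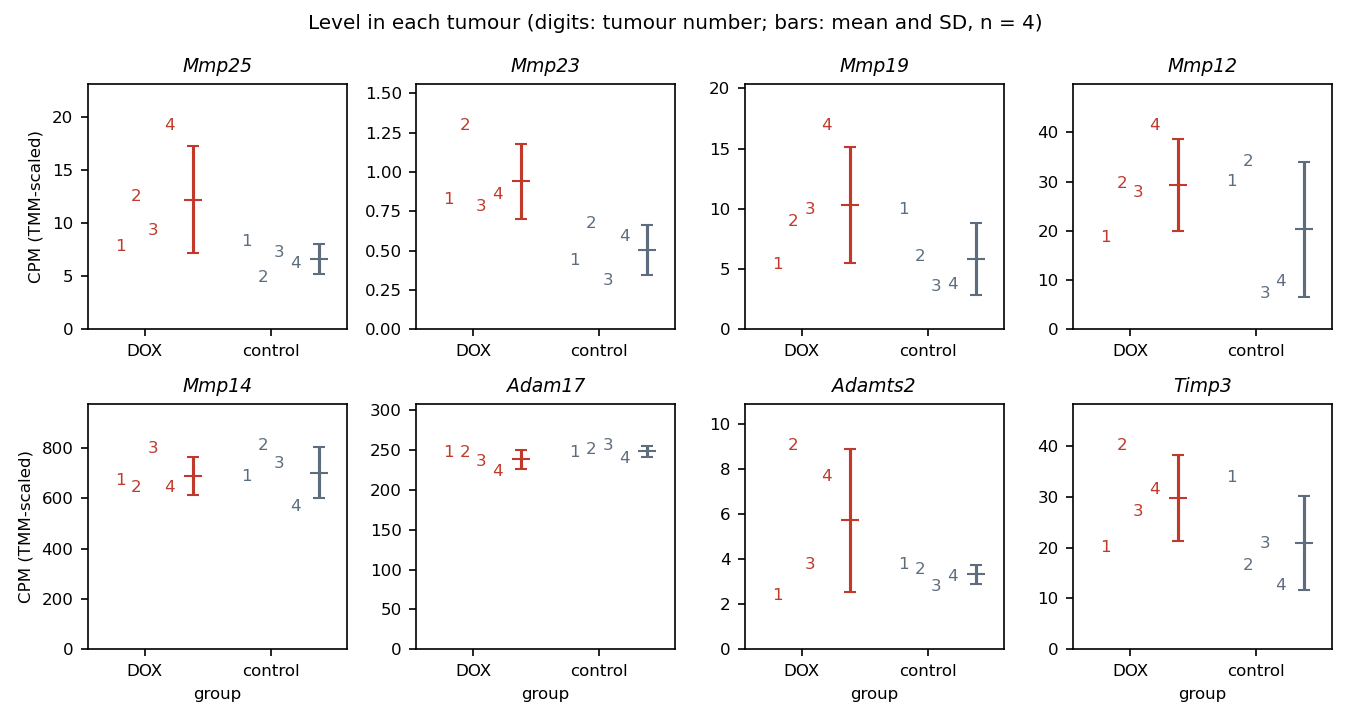
TMM-scaled CPM of 8 members in each tumour, DOX left and control right, with the tumour number as the plotting symbol and the mean and SD of 4 tumours beside it. Mmp23 is the panel without overlap, DOX tumour 4 is highest in Mmp25, Mmp19 and Mmp12, and Adam17 has nearly the same level in all 8 tumours.

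Among ADAMs, 5 genes were abundant, 4 of them with little spread between tumours, and Adam19 was intermediate in level. Adam17, the protease that releases TNF and ligands of the EGF receptor, was at 247, 248, 235 and 223 CPM in DOX tumours 1 to 4 and at 247, 251, 256 and 239 CPM in control tumours 1 to 4. The groups overlapped, and the log2 fold change was -0.06 ± 0.06 (SE, adjusted p = 0.722). Adam10, which starts the cleavage of Notch receptors, averaged 177 ± 7.85 CPM in DOX tumours and 167 ± 10.0 CPM in controls (SD, n = 4 each). Its log2 fold change was 0.09 ± 0.06 (SE, adjusted p = 0.621). Adam15 was at 150, 146, 152 and 148 CPM in DOX tumours 1 to 4 and at 139, 155, 126 and 120 CPM in control tumours 1 to 4. Its DOX tumours lay closer together than its controls, and control tumour 2 was above them all (log2 fold change 0.14 ± 0.08, SE, adjusted p = 0.515). Adam9, a widely expressed sheddase, differed by -0.04 ± 0.08 on the log2 scale (SE, adjusted p = 0.874).

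Adam8, an ADAM found on myeloid cells and on invasive tumour cells, varied more than the other abundant members. It was at 119, 163, 121 and 232 CPM in DOX tumours 1 to 4 and at 196, 140, 128 and 125 CPM in control tumours 1 to 4. DOX tumour 4 and control tumour 1 were the highest of their groups, and the log2 fold change was 0.11 ± 0.24 (SE, adjusted p = 0.886), with -0.13 without DOX tumour 4. Its count was whole in 0 of 8 libraries. Adam19, an ADAM with a role in heart development, was likewise highest in DOX tumour 4, at 54.5 CPM against 29.8 to 44.3 CPM in the other DOX tumours and 33.9 to 39.1 CPM in controls. Its log2 fold change was 0.13 ± 0.17 (SE, adjusted p = 0.799), with -0.04 without DOX tumour 4. Adam12, a protease of activated fibroblasts and muscle precursors, was at 0.75 ± 0.56 on the log2 fold scale (SE, adjusted p = 0.626), with 7.58 CPM in DOX tumour 2 against 1.40 to 3.19 CPM in the other DOX tumours and 0.819 to 3.47 CPM in controls. Without DOX tumour 2 it was at 0.12. The skeletal muscle marker sum was highest in DOX tumour 2, at 205 CPM, and nearly as high in DOX tumour 4, at 192 CPM, where Adam12 was at 2.51 CPM. Adam4, Adam11, Adam22, Adam28 and Adam33 had log2 fold changes between -0.35 and 0.52.

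Of the 7 untested ADAMs, which had 1 to 60 counts each, Adam23 had the most. Adam23, an ADAM without protease activity that binds partner proteins in the nervous system, had 9, 19, 8 and 9 counts in DOX tumours 1 to 4 and 5, 8, 1 and 1 counts in control tumours 1 to 4. DOX tumour 3 and control tumour 2 had the same count of 8, at 0.418 and 0.415 CPM, so the groups touch in counts and are barely apart in CPM. When edgeR was run without a filter, its log2 fold change was 1.53 ± 0.62 (SE, unadjusted p = 0.0300, adjusted p = 0.457). The others, Adam3, Adam5, Adam18, Adam21, Adam30 and Adam32, are known mainly from testis or sperm in mice.

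The ADAMTS proteases had a median close to that of all genes, at -0.02, with 5 of 11 tested genes above 0. Adamts14, a procollagen N-proteinase, was at 65.4, 70.3, 73.7 and 78.8 CPM in DOX tumours 1 to 4 and at 70.2, 76.5, 72.3 and 67.8 CPM in control tumours 1 to 4. Both ends of the range were in DOX tumours, and the log2 fold change was 0.01 ± 0.07 (SE, adjusted p = 0.980). Adamts1, a proteoglycan-cutting protease with anti-angiogenic activity, was at 47.8, 46.7, 41.2 and 32.7 CPM in DOX tumours 1 to 4 and at 39.2, 52.3, 43.2 and 58.5 CPM in control tumours 1 to 4. DOX tumour 4 was lowest and control tumour 4 highest, and the log2 fold change was -0.20 ± 0.15 (SE, adjusted p = 0.647). Adamts4, an aggrecanase, was at 43.6, 40.5, 53.8 and 34.1 CPM in DOX tumours 1 to 4 and at 45.7, 56.7, 42.2 and 27.0 CPM in control tumours 1 to 4. The groups overlapped over nearly their whole range (log2 fold change 0.00 ± 0.22, SE, adjusted p = 0.995).

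Adamts2, the procollagen N-proteinase that acts on fibrillar collagens of skin, had the largest fold change of the family at 0.78 ± 0.38 (SE, adjusted p = 0.462). DOX tumours 2 and 4 had 9.08 and 7.69 CPM, and DOX tumours 1 and 3 had 2.38 and 3.76 CPM, against 2.80 to 3.77 CPM in controls. The higher mean thus comes from 2 of 4 DOX tumours, which also had the highest skeletal muscle marker sums, at 205 and 192 CPM. The same 2 tumours were highest in the macrophage marker sum, at 3356 and 4539 CPM. In the T cell marker sum DOX tumour 3, at 114 CPM, was above DOX tumour 2, at 109 CPM. The part of any of these cell types in the level of Adamts2 was not tested. Without DOX tumour 2 the log2 fold change was 0.47. The proteoglycanases Adamts5 and Adamts9 had -0.13 ± 0.29 and -0.12 ± 0.20 (SE), and Adamts7, which cuts the cartilage matrix protein COMP, had -0.21 ± 0.19 (SE). Adamts6, Adamts10, Adamts12 and Adamts19 had log2 fold changes between -0.13 and 0.04. The 8 untested genes of the family, Adamts3, Adamts8, Adamts13, Adamts15, Adamts16, Adamts17, Adamts18 and Adamts20, had 1 to 58 counts each over all 8 tumours.

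TIMPs were led by Timp2, at a mean of 318 FPKM, followed by Timp1 at 75.2 FPKM and Timp3 at 5.44 FPKM. Timp2 was at 1186, 1003, 1324 and 1063 CPM in DOX tumours 1 to 4 and at 903, 1383, 1133 and 1091 CPM in control tumours 1 to 4. Both extremes were controls, and the log2 fold change was 0.02 ± 0.13 (SE, adjusted p = 0.964). Timp1, an inhibitor induced by inflammation, was at 58.7, 64.5, 58.1 and 66.3 CPM in DOX tumours 1 to 4 and at 89.1, 57.2, 55.6 and 54.8 CPM in control tumours 1 to 4. Control tumour 1 stood above the other 7 tumours, and the log2 fold change was -0.05 ± 0.16 (SE, adjusted p = 0.917), and 0.15 without it. Timp3, the matrix-bound inhibitor that also blocks ADAM17, was at 20.03, 40.2, 27.2 and 31.5 CPM in DOX tumours 1 to 4 and at 33.7, 16.4, 20.7 and 12.4 CPM in control tumours 1 to 4. DOX tumour 1 lay below control tumours 1 and 3, and the log2 fold change was 0.51 ± 0.32 (SE, adjusted p = 0.556), with 0.84 without control tumour 1 and 0.33 without DOX tumour 2 or without control tumour 4. Timp3 overlaps Syn3 in the annotation, and its counts were whole in 0 of 8 libraries. Timp4, known from heart and muscle, had 0 counts in every DOX tumour and 3 counts over the controls, which is within the 3 counts that a count of 0 allows.

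Across the 42 tested genes, the tumour with the highest level was DOX tumour 4 for 11 genes and control tumour 2 for 13. The lowest was control tumour 4 for 12 genes and control tumour 1 for 10. DOX tumour 4 led in Mmp8, Mmp12, Mmp13, Mmp19, Mmp25, Adam8, Adam19, Adam22, Adamts10, Adamts14 and Adamts19. Control tumour 2 led in Mmp2, Mmp3, Mmp10, Mmp11, Mmp14, Mmp15, Mmp16, Adam15, Adamts4, Adamts5, Adamts7, Adamts9 and Timp2. DOX tumour 1 was highest in 1 gene, Mmp24.

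**Figure D4:**
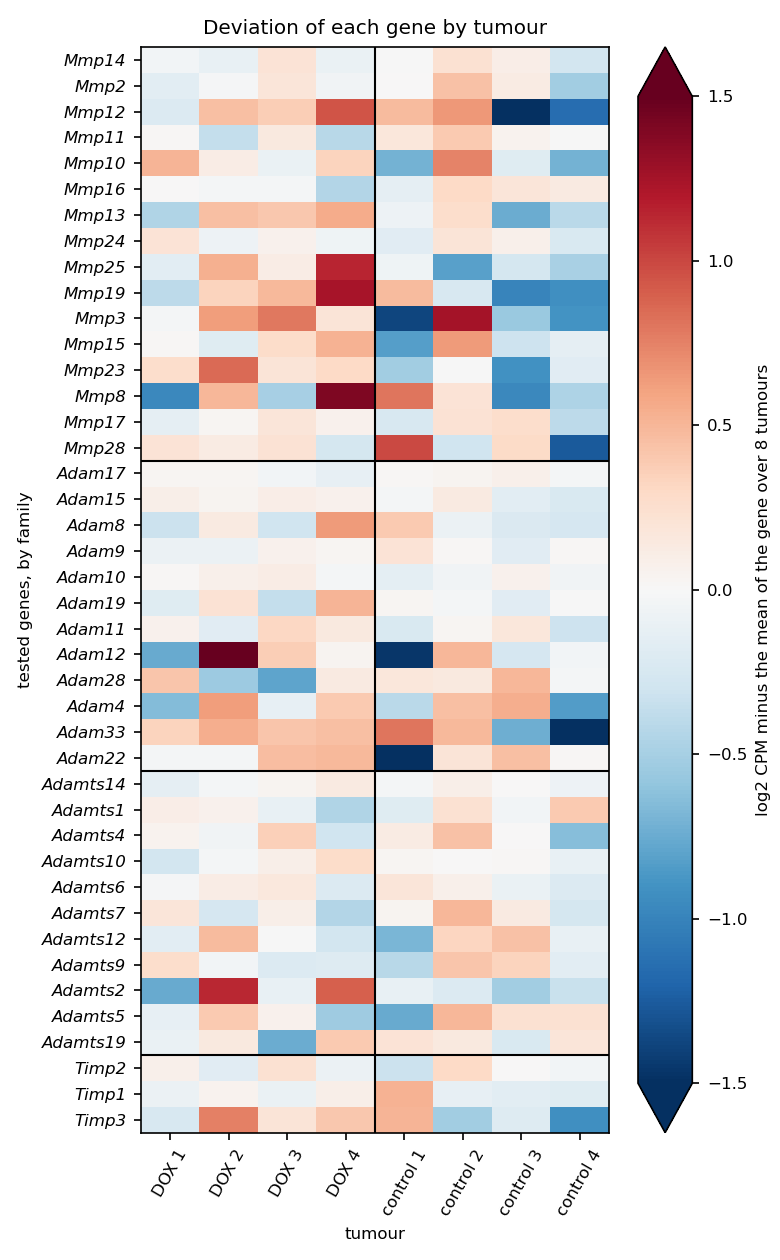
Deviation of each tested gene from its own mean over the 8 tumours, in log2 CPM, with DOX tumours left of the line and controls right of it, and colours cut off at -1.5 and 1.5. The rows of Adam17 and Adam10 are pale throughout, whereas Mmp12, Mmp19 and Mmp3 differ strongly between tumours of 1 group.

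Genes that act with these proteases were summarised from lists of the pathway, in which 0 tested members passed an adjusted p of 0.05 with edgeR. Of 12 tested activators and inhibitors of matrix proteases, 2 had an unadjusted p below 0.05, both on the higher side, or 16.7% against 11.6% of all genes, with a list median of 0.01. These were Serpine2, an inhibitor of thrombin and plasminogen activators, at 1.15 ± 0.40, and St14, the membrane protease matriptase, at 0.76 ± 0.33 (log2 fold change, SE). Bsg, which induces MMPs in neighbouring cells, had -0.13 ± 0.11 (log2 fold change, SE). Of 9 tested regulators of ADAM10 and ADAM17, Tspan14, a tetraspanin partner of ADAM10, was the 1 gene with an unadjusted p below 0.05, or 11.1% of the list against 11.6% of all genes, at 0.16 ± 0.06 on the log2 scale (SE). DESeq2 called Sfrp1 in this list, a secreted Wnt inhibitor too low for edgeR's filter, at 0.259, 4.57, 1.15 and 0.695 CPM in DOX tumours 1 to 4 and 0.0519 to 0.218 CPM in controls.

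Among substrates that ADAMs release, many leaned to higher values in DOX tumours, though 0 passed the adjusted threshold with edgeR. Of 34 tested substrates, 15 had an unadjusted p below 0.05 on the higher side and 2 on the lower side, or 50%, against 11.6% of all genes, and the list median was 0.24. The 4 with the smallest p were Csf1r, which binds macrophage colony-stimulating factor, at 0.47 ± 0.12, the cytokine Tnf at 1.09 ± 0.27, the adhesion molecule Vcam1 at 0.33 ± 0.10 and the efferocytosis receptor Mertk at 0.60 ± 0.17 (log2 fold change, SE, each with adjusted p = 0.387). Tnf averaged 15.6 ± 4.91 CPM in DOX tumours and 7.32 ± 1.88 CPM in controls (SD, n = 4 each). DESeq2 called 3 of the list, Tnf, Icam1 and Lag3. Several of these genes are themselves made by macrophages or T cells, whose marker sums were higher in DOX tumours as given above, and the part of those cells was not tested. Whether the substrates differ from the ADAMs in this was not tested.

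Matrix substrates of the ADAMTS proteases had a median of -0.11, with 10 of 12 tested genes below 0 and 0 with an unadjusted p below 0.05. The 2 most abundant were Col3a1, a fibrillar collagen, at -0.20 ± 0.22, and the matrix glycoprotein Fn1 at -0.28 ± 0.20 (log2 fold change, SE). Among other matrix proteases and ADAMTS-like proteins, 7 of 17 tested genes had an unadjusted p below 0.05, all on the higher side, or 41.2%, against 11.6% of all genes and 7.65% on the higher side. The 4 with the smallest p were the collagen-cutting cathepsin Ctsk at 1.81 ± 0.47, the peptidase Dpp4 at 1.33 ± 0.35, the lysosomal protease Ctss at 0.68 ± 0.20 and the cathepsin Ctsb at 0.49 ± 0.15 (log2 fold change, SE, each with adjusted p = 0.387). Ctsk and Dpp4 were low in level, and the groups overlapped in both. Ctsk averaged 2.16 ± 1.22 CPM in DOX tumours and 0.608 ± 0.285 CPM in controls (SD, n = 4 each). Dpp4 averaged 4.63 ± 2.28 CPM in DOX tumours and 1.83 ± 0.342 CPM in controls (SD, n = 4 each). Ctss averaged 1249 ± 384 CPM in DOX tumours and 777 ± 57.5 CPM in controls (SD, n = 4 each). It was the 1 gene of this list that DESeq2 called, with an adjusted p of 0.0482. DOX tumour 4 was highest in Ctss and Ctsb, as in the macrophage marker sum.

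**Figure D5:**
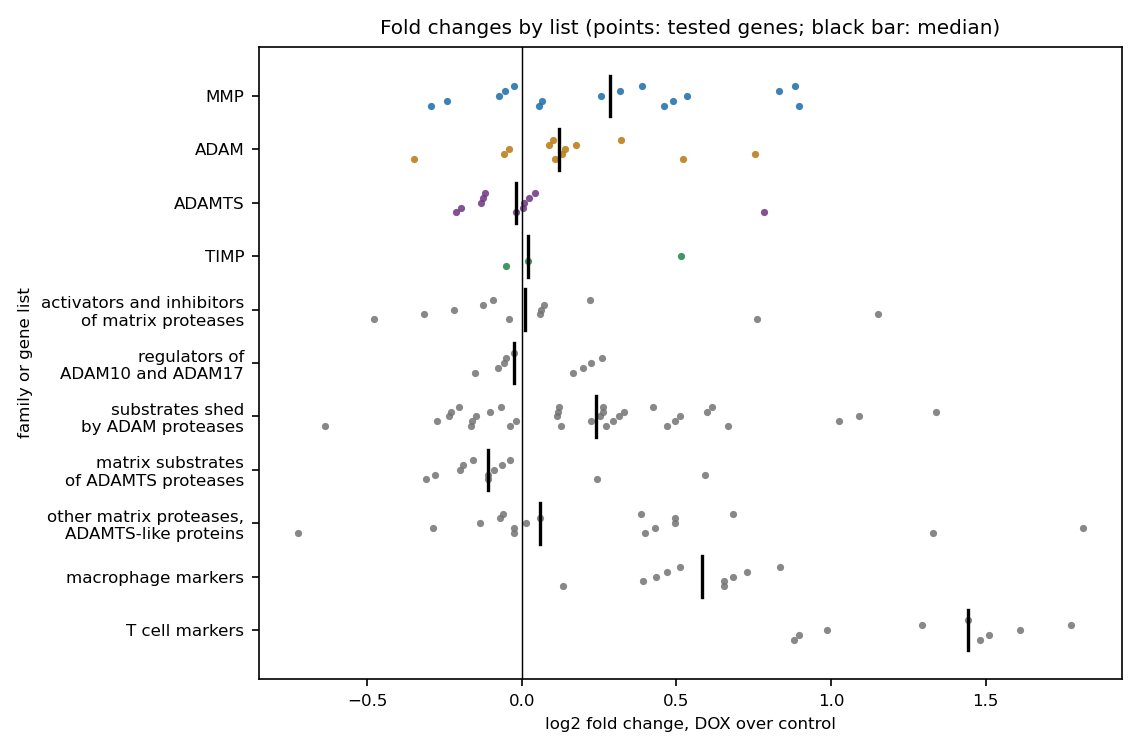
Log2 fold change of DOX over control tumours for every tested gene (points) of the 4 families, of 5 lists of associated genes and of 2 marker lists, with the median as a black bar. Medians are 0.29 for MMPs, 0.12 for ADAMs, -0.02 for ADAMTS proteases, 0.02 for TIMPs, 0.24 for shed substrates, 0.58 for macrophage markers and 1.44 for T cell markers.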

How the data were processed

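Per the labels' protocols, total RNA was purified from 0.1 g of each tumour and made into mRNA libraries. HISAT and Bowtie2 are named, with the build GRCm38.p6, in the submitters' processing notes. The sources used here do not give the counting tool, the annotation or the strand setting. The authors deposited read counts, which are expected counts since 64.9% of values are whole (within 0.005), so reads of overlapping genes or paralogs may have been divided. Of the 42 tested members, 18 had whole counts in all 8 libraries and 16 in 0. The authors also deposited FPKM, per the file headers, used to compare genes and in an alternative. A deposited TPM table has 8 columns that match no label and were not used. The labels' protocol gives 300 mm3 as the size at which DOX began, and the series' design text gives it as the size at harvest. The design text gives 4 animals per group, so p-values measure the spread between mice.

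Counts were rounded and tested with edgeR 4.0.16 (R 4.3.3): filterByExpr, TMM, quasi-likelihood F test with robust dispersion (common coefficient of variation 14.7%), Benjamini-Hochberg adjustment over 13436 genes. An SE is the fold change divided by the square root of F. On simulated data with the means and dispersions of this comparison (13339 genes kept), 54.0% of 1.5-fold, 76.0% of 2-fold, 90.0% of 4-fold and 98.0% of 8-fold changes were recovered, with 5 false calls among 164. The simulation held 50 changed genes at each fold, and more calls make the adjusted threshold easier to pass. The real fit called 1 gene and missed Cxcl14 at 2.61-fold, so these shares do not give the recovery in the real fit. Alternatives were DESeq2 1.42.0 on all genes, other scalings and filters, limma 3.58.1 on log2 FPKM with a pseudocount of 0.1 or 1, a replicate block and leaving out each tumour.

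Members and lists were chosen with earlier results of these data known. Values in all 8 tumours are given for members with an unadjusted p of at most 0.05, members without overlap between groups, the 3 of highest mean FPKM per family and all TIMPs; the other per-tumour values, and Sfrp1, Icam1, Lag3, Adgrg1 and the markers named, were chosen after seeing them. The rule for pathway lists was up to 4 genes with an unadjusted p of at most 0.05 and the 2 of highest FPKM. The 2 of highest FPKM were named only for ADAMTS matrix substrates and for other matrix proteases. Of the activators and inhibitors, Bsg alone was named by its level. The regulators and the shed substrates of highest FPKM were not named. Coordinates and promoters are RefSeq's for GRCm38.p6, with all 62 members matched by symbol for coordinates. A gene that matches the naming pattern and a gene that the rule for pathway lists would name are not reported here.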

Additional observations from a re-analysis of the deposited data

Results flagged for a closer look

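In groups of 4, a tumour was singled out when its gap to the nearest other tumour took up more of the group's range than Dixon's 95% critical value allows. This held for 5 of 84 groups of the tested genes, and chance gives about 1 in 20. Mmp16 was at 27.2 CPM in DOX tumour 4, below the 36.0 to 37.2 CPM of the other DOX tumours. Mmp23 was at 1.30 CPM in DOX tumour 2, above the 0.783 to 0.855 CPM of the others. Mmp3 was at 3.89 CPM in control tumour 2, above the 0.546 to 1.04 CPM of the other controls. Adamts19 was at 0.415 CPM in control tumour 3, below the 0.570 to 0.601 CPM of the others. Timp1 was at 89.1 CPM in control tumour 1, above the 54.8 to 57.2 CPM of the others. The 5 values came from 5 different tumours.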

How the results depend on the processing

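Under each of the 16 alternatives, 0 members passed an adjusted p of 0.05, with a smallest member adjusted p of 0.111, that of Mmp25 with DESeq2. DESeq2 called 79 genes in all against 1 with edgeR (59 higher and 20 lower), and leaving out 1 tumour gave 1 to 2. The number of members with an unadjusted p of at most 0.05 was 5 with DESeq2 (8.06% against 9.69% of all genes). It was 1 when at least 1 CPM was required in 4 tumours (2.86% against 11.7%), and 1 to 6 when 1 tumour was left out. The highest of these, 6 without control tumour 2, was 14.3% of the members tested, against 10.5% of all genes in that fit. The family medians stayed within 1 SD of the tumours' family scores under each alternative, with the MMP median at 0.09 on log2(FPKM + 1). That SD was 0.26 for MMPs and 0.19 for ADAMs, beside medians of 0.29 and 0.12. It is thus too wide a measure to show that the medians are stable. Mmp25 and Mmp23 kept a positive fold change in all 16 and 15 alternatives that could be run for them. Same-numbered tumours did not deviate together (correlations over genes of 0.00, 0.04, 0.09 and -0.02), so the numbers are taken only as names. With a replicate block, 0 members and 1 gene in all were called. In that fit 3 members had an unadjusted p of at most 0.05 (7.14% against 10.4% of all genes). The causes of these shifts were not tested. Depth limits the 20 untested members, with at most 60 counts each.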
